A study of Mus musculus with 12 samples.

Results

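Cluster 13 of the authors' deposited cell table was a rare set of tumour-infiltrating innate lymphocytes: 73 of the 45477 cells kept by the authors. Its members were the cells that table gives to cluster 13, and their RNA and antibody counts were taken from the 6 deposited count matrices by cell barcode. The authors labelled 67 of them NK cells (91.8%) and 6 T cells (8.22%). They are compared here with cluster 0, the main NK cluster (8735 cells), and cluster 7, an NK cluster rich in the CD90.2 antibody tag (2036 cells). Clusters 0, 7, 8, 9 and 13 together hold 13545 cells and are called the NK clusters below.

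All 6 mice were RAG-KO (B6.129S7-Rag1tm1Mom/J), which lack mature T and B cells of their own, and carried intradermal tumours of B16-F10, a mouse melanoma line. All of them were given CD8+ T cells of the Pmel Thy1.1 strain, which recognise a melanocyte antigen, by the retro-orbital route. In 3 mice the T cells had been treated in culture with CAL-101 (idelalisib, an inhibitor of the PI3K delta kinase), and in 3 control mice with vehicle. Neither the NK cells nor the mice were given the drug, so a difference between the groups in host cells is one seen beside treated or untreated transferred T cells. The 6 cells of cluster 13 labelled T cells were all from control mice, and whether they were host or transferred cells was not tested. Live CD45.2+ cells were sorted from the tumours, stained with a cocktail of DNA-tagged antibodies and sequenced as 3′ RNA and tag libraries. The age of the mice is not given in the labels used here.

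Cluster 13 held 3, 8 and 5 cells in CAL-101 mice 1, 2 and 3, and 13, 18 and 26 cells in control mice 1, 2 and 3. CAL-101 mouse 1, with 3 cells, was left out of the ratios and fits, so that values over mice are over 5 mice, 2 of CAL-101 and 3 control. The 73 cells carried 543484 RNA molecules (UMIs, the unique tags by which molecules are counted) and 170972 antibody tags, from libraries of 6152 to 9147 cells and 75716841 to 97933109 UMIs. A cluster 13 cell had between 873 and 21140 UMIs, with a median of 6779, against medians of 6277 in cluster 0 and 16836 in cluster 7. Among all cells, 498 shared a barcode with a cell of another library, 2 of them in cluster 13. The cells were grouped by the authors from measurements of these cells, so differences between clusters are described and carry no test.

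NK cells are innate lymphocytes that kill infected or transformed cells without an antigen receptor. They do so by releasing granules that hold perforin, which opens the target's membrane, and granzymes, serine proteases that act inside it. In the mouse, granzymes B to G and N and cathepsin G are encoded side by side in one cluster of genes on chromosome 14, whereas granzyme A, which lies elsewhere, and granzyme B are the granzymes best known from NK cells.

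The sequences just upstream of 4 of these genes are shown because these 4 genes carried most of the RNA of the locus in cluster 13, beside that of Gzmb, a neighbour that differed by less than 2-fold. Each is the 250 bases before the annotated start, 5′ to 3′ on the minus strand of mouse chromosome 14, from RefSeq on GRCm38.p6. They lie at chr14:56132594-56132843 (Gzmd), chr14:56120626-56120875 (Gzme), chr14:56211408-56211657 (Gzmf), chr14:56159580-56159829 (Gzmg) and chr14:56262335-56262584 (Gzmb). Capitals mark the letters TGTGGTT, a RUNX motif, or their reverse complement.
Gzmd: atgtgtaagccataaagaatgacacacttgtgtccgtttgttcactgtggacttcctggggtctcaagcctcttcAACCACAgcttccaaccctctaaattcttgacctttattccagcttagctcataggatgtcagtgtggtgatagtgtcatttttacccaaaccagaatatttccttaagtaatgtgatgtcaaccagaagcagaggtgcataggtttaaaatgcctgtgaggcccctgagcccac
Gzme: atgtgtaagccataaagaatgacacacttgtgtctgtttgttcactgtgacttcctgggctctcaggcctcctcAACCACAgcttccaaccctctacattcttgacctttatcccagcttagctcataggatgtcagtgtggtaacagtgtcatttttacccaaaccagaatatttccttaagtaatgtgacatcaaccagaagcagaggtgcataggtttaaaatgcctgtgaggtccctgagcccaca
Gzmf: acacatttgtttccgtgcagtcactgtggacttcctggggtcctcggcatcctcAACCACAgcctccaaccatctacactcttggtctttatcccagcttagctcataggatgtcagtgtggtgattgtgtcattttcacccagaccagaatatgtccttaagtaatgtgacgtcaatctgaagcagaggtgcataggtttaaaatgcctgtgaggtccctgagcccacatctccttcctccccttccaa
Gzmg: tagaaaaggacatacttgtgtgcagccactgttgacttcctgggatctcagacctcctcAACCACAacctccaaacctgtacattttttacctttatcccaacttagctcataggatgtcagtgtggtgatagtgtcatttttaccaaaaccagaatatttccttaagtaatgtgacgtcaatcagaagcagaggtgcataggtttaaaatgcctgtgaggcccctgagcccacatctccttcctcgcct
Gzmb: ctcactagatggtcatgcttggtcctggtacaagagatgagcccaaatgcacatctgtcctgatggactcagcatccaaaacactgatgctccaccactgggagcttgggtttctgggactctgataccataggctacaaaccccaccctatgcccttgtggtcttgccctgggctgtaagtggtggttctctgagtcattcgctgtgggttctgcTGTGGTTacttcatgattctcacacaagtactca
The upstream sequences of Gzmd and Gzme were identical at 95.6% of aligned bases, and the other pairs among the 4 at 88.2 to 91.0%. Gzmb matched each of the 4 at 55.5 to 61.3%. The motif, searched on both strands, began 175 bases before the start in Gzmd, 176 in Gzme, 196 in Gzmf, 191 in Gzmg and 34 in Gzmb. It was present in 1444 of the 32851 promoters searched (4.396%) and was not found in the windows of Ctsg and Gzmn, whose RNA was also high in cluster 13. A T-box motif, AGGTGTGA on either strand, was not found in the windows of the 8 genes of the locus examined (Ctsg, Gzmb, Gzmc, Gzmd, Gzme, Gzmf, Gzmg and Gzmn) and was present in 1.12% of all promoters.

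Cluster 13 had the RNA of killer lymphocytes, with Klre1 and CD90.2 at levels that differ in part from its working name of rare CD90.2-high, Klre1-high innate cells. Klre1, which encodes a lectin-like NK receptor, was at 248 and 187 CPM (the UMIs of a gene scaled to the total UMIs of the same cells) in CAL-101 mice 2 and 3 and at 164, 275 and 151 CPM in control mice 1, 2 and 3. In cluster 0 the same 5 mice had 492, 458, 290, 267 and 258 CPM, and in cluster 7 they had 326, 354, 248, 298 and 248 CPM. Klre1 was thus lower than in the summed clusters 0 and 7 in 5 of 5 mice, by less than 2-fold over the pooled cells. Its log2 ratio of -0.48 was above the median of all genes, and set against that median, as explained below, it turns to 0.63 and is higher in 4 of 5 mice, without meeting the rule for a called difference. Ncr1, the activating receptor NKp46, averaged 89.2 ± 40.1 CPM in cluster 13 (SD, n = 5 mice), and 177 and 186 CPM over the pooled cells of clusters 0 and 7. Klra8, which encodes the activating receptor Ly49H, was at 60.5 CPM pooled over the 5 mice, against 274 and 159 CPM in clusters 0 and 7.

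Klra4 and Cd44 were both low, and both were chosen with earlier results of these data known. Klra4, the gene of the activating receptor Ly49D, had 2 UMIs in all of cluster 13, both in CAL-101 mouse 3, and was at 309 and 96.0 CPM in clusters 0 and 7. Cd44, an adhesion receptor that binds hyaluronan, had 4 UMIs (7.57 CPM), against 155 and 103 CPM. Thy1, which encodes CD90, was at 337 and 350 CPM in CAL-101 mice 2 and 3 and at 345, 354 and 263 CPM in control mice 1, 2 and 3. All 5 values were above the 192 to 239 CPM of cluster 0 and below the 406 to 478 CPM of cluster 7. Since free RNA puts stray UMIs into any cell, cells were also thinned to 2000 UMIs each and set beside cluster 10, whose cells are mostly labelled neutrophils or monocytes. Klre1 was then found in 34.3% of 67 cluster 13 cells, against 44.0% in cluster 0, 41.1% in cluster 7 and 3.68% in cluster 10. Ncr1 was found in 8.96% of cluster 13 cells, against 29.2, 30.4 and 0.64%, so both stayed above the level of stray RNA. Before thinning, Klre1 was found in 57.5% and Ncr1 in 34.2% of cluster 13 cells, at the median depth given above. Of the 15 core NK genes listed, all had UMIs in cluster 13, as had all 13 T cell genes listed. By the rule given below, 8 of the 15 were lower (53.3%, against 47.8% of all genes) and none higher. Some defining genes of other cells were at 0, among them Lyz2, C1qa, S100a8, Cd79a, Pmel, Il1rl1 and the haemoglobin genes. Other genes of such lists had UMIs: 13 over 9 neutrophil genes, 54 over 11 monocyte and macrophage genes, 22 over 9 B and plasma cell genes and 2 over 7 melanoma genes.

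A gene is called higher or lower in cluster 13 where it differed by over 2-fold from cluster 0 and from cluster 7, after adding 10 CPM, and lay on the same side of the 2 clusters summed in all 5 mice. Of 3540 genes of at least 50 CPM in cluster 13 or in the NK clusters 0 and 7 together, 80 were higher (2.26%) and 1691 lower (47.8%), with a median log2 ratio of -1.11. With each ratio set against that median (centred), 922 genes were higher (26%) and 842 lower (23.8%), so whether a moderately changed gene counts as higher or lower depends on the scaling. Of the 120 genes considered by name, 8 changed sign when centred: Klre1, Ncr1, Spn, Pecam1, Trac, Top2a, Mcm3 and Cma1, of which Ncr1 and Spn had met the rule. Counts for most gene groups are given both ways, to be read against these shares of all genes.

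The granzymes of the chromosome 14 locus stood out most. The locus holds 15 protein-coding genes from Cma1 to Gzmb, at positions 55941451 to 56262334 on GRCm38.p6. The 8 of them from Ctsg to Gzmb took 13.6% of all UMIs in cluster 13, against 0.312% in cluster 0 and 2.66% in cluster 7. Gzmg was at 42055 and 31629 CPM in CAL-101 mice 2 and 3 and at 36003, 30916 and 34444 CPM in control mice 1, 2 and 3. In cluster 7 the same 5 mice had 4533, 470, 2969, 1532 and 4534 CPM, and in cluster 0 none of the 5 exceeded 23.4 CPM. The ranges did not overlap, and the log2 ratio was 10.47 to cluster 0 and 3.78 to cluster 7.

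Gzmf was at 41023 and 40896 CPM in CAL-101 mice and at 45866, 36455 and 42625 CPM in control mice, with 1071 to 9572 CPM in cluster 7 and 33.6 to 115 CPM in cluster 0. Gzmd averaged 28227 ± 4280 CPM in cluster 13 (SD, n = 5 mice), with log2 ratios of 9.35 to cluster 0 and 2.67 to cluster 7. Gzme averaged 11275 ± 790 CPM, with log2 ratios of 8.52 and 2.47. These 4 genes lie close together, with Gzmn between Gzmg and Gzmf, and encode granzymes of closely related sequence, so the authors' read counting may have split reads between them, and the division among the 4 is uncertain. After thinning to 2000 UMIs, Gzmd was found in 100% of 67 cluster 13 cells, against 5.22% in cluster 0, 53.6% in cluster 7 and 7.84% in cluster 10. Gzmg was found in 98.5%, against 2.93, 24.1 and 3.04%, so the few cluster 0 cells with Gzmg were no more frequent than stray RNA gives.

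The neighbours of the 4 genes were graded. Ctsg, which encodes cathepsin G, a protease best known from neutrophils, was at 705 and 584 CPM in CAL-101 mice and 1085, 318 and 1054 CPM in control mice, against at most 0.358 CPM in a mouse of cluster 0 and 3.34 to 93.5 CPM in cluster 7. Of 9 neutrophil genes listed, 6 had no UMI in cluster 13, S100a8, Cxcr2, Retnlg and Mmp9 among them. The 9 summed to 13 UMIs (23.9 CPM, against 10.6 and 20.6 CPM in clusters 0 and 7). Ctsg was found in 47.8% of thinned cluster 13 cells but in 0 of 625 in cluster 10. Gzmn, granzyme N, was at 75.6 CPM, against 0.0402 and 3.64 CPM in clusters 0 and 7. Gzmc was at 17087 CPM pooled, against 477 CPM in cluster 0 and 11027 CPM in cluster 7, and so was near the level of cluster 7. Gzmb, at the end of the locus, was at 3548 CPM, against 2374 and 2217 CPM, which is under 2-fold. Prf1, perforin, was at 2591 CPM, against 716 and 1506 CPM, over 2-fold above cluster 0 but not above cluster 7.

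Granzyme A went the other way. Gzma was at 724 and 4505 CPM in CAL-101 mice and at 5326, 152 and 1322 CPM in control mice, against 8301 and 4862 CPM over the pooled cells of clusters 0 and 7. It was lower in 5 of 5 mice but ranged widely among them. Of the 16 measured genes for granule proteins, their inhibitors and death ligands, 4 were higher (Gzmd, Gzme, Gzmf and Gzmg), 3 lower (Gzma, Fasl and Ctsw) and 9 neither, with a median log2 ratio of 0.59. Centred on the median of all genes, 9 were higher and none lower. Gzmm, granzyme M, had no UMI.

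**Figure D1:**
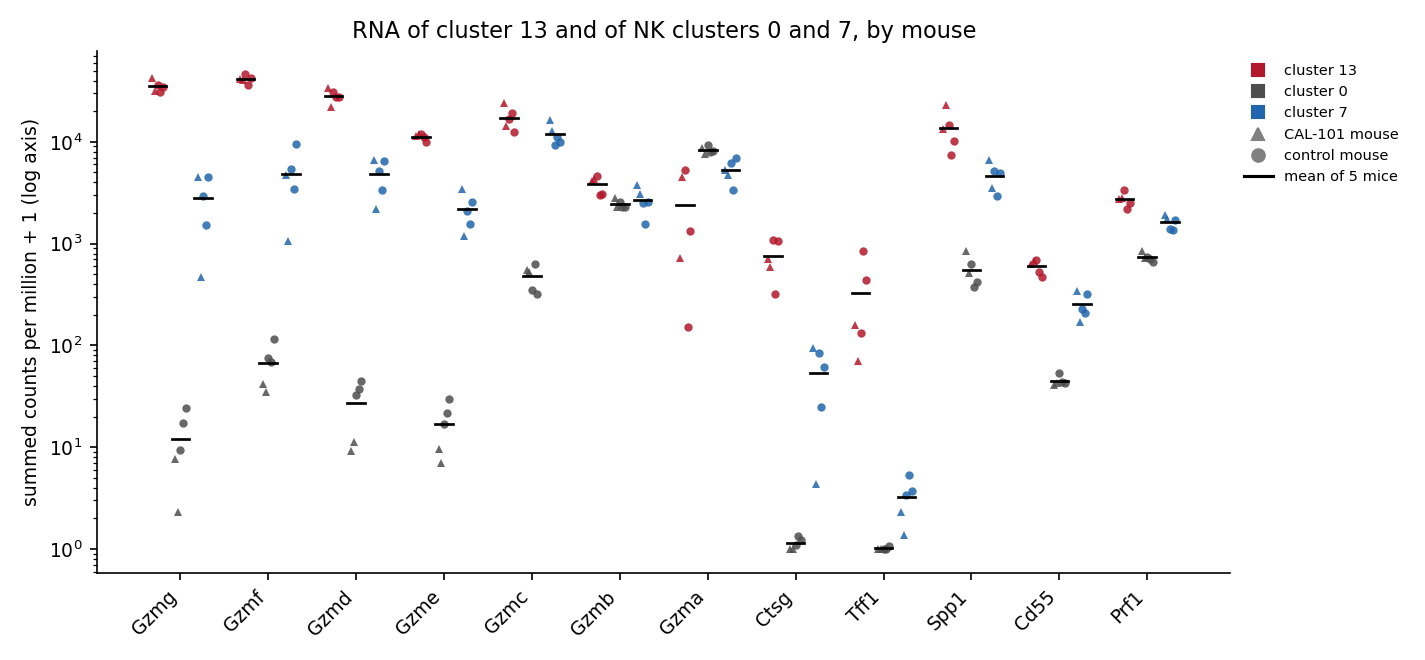
Level of 12 genes (CPM + 1, log axis) in cluster 13, cluster 0 and cluster 7, with a triangle for each CAL-101 mouse, a circle for each control mouse and a bar for the mean of the 5 mice. The granzyme genes Gzmd to Gzmg of cluster 13 lie above every mouse of clusters 0 and 7, as do Ctsg, Tff1, Spp1 and Cd55, while Gzma lies lower on average than in both clusters.

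Outside the locus, the genes highest relative to clusters 0 and 7 were of mixed kinds. Tff1, a secreted trefoil peptide of mucous epithelia, was at 159 and 70.0 CPM in CAL-101 mice and 132, 839 and 441 CPM in control mice, against 0.0201 CPM in cluster 0 and 3.14 CPM in cluster 7. Every mouse had it, and it was found in 34.3% of thinned cluster 13 cells and in 0 of 625 cells of cluster 10. Fcrl6, an Fc-receptor-like receptor for MHC class II found on cytotoxic lymphocytes in humans, was at 635 CPM, against 9.19 and 39.0 CPM. Spp1, the secreted phosphoprotein osteopontin, was at 13248 and 23086 CPM in CAL-101 mice and 14796, 7384 and 10164 CPM in control mice, against 477 and 4051 CPM. All 5 values lay above the 2924 to 6556 CPM of cluster 7.

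The metallothioneins Mt1 and Mt2, which bind zinc and copper, were at 1492 and 386 CPM, against 57.6 and 12.6 CPM in cluster 0 and 458 and 121 CPM in cluster 7. Tmsb15a, a thymosin that binds actin monomers, was at 450 CPM, against 16.7 and 62.4 CPM, Avil, the actin-severing protein advillin, at 246 CPM, against 9.17 and 32.3 CPM, and Basp1, a membrane-bound protein of growing nerve endings, at 766 CPM, against 9.03 and 207 CPM. Of 14 actin, thymosin and S100 genes, a group put together after their values were seen, 5 were higher and none lower, with a median log2 ratio of 0.95, and centred 13 were higher. Lgals3, galectin 3, was at 2438 CPM, against 369 and 703 CPM. AA467197 (1422 CPM, against 64.7 and 249 CPM), Tmem119 (157 CPM, against 0.322 and 23.8 CPM) and Csta2, a stefin (66.2 CPM, against 0.181 and 0.385 CPM), completed the 15 largest with Asns, asparagine synthetase, at 121 CPM, against 1.89 and 17.8 CPM.

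Cd55, which encodes decay-accelerating factor, a membrane protein that protects a cell from complement, was at 635 and 677 CPM in CAL-101 mice and 690, 521 and 468 CPM in control mice. Cluster 7 had 167 to 344 CPM and cluster 0 had 39.6 to 52.4 CPM in the same mice, so the 3 clusters did not overlap. Egln3, a prolyl hydroxylase induced in hypoxia, was the 1 higher gene of 14 measured genes of glycolysis and hypoxia, at 58.6 CPM, against 5.11 and 10.7 CPM. In that group, Hif1a, the hypoxia-inducible factor subunit, and Ndrg1 were lower and 11 were neither, with a median log2 ratio of 0.35; centred, 7 were higher and 1 lower. Gapdh, a glycolytic enzyme, was at 3315 CPM, against 1329 and 2296 CPM. Of 78 ribosomal protein genes, 1 (Rps26) was higher and none lower, and centred 77 were higher.

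Single NK receptor genes differed in their ratios, while the receptor groups had shares of lower genes near or little above the 47.8% of all genes. Of the 6 measured Ly49 genes, which encode receptors for MHC class I and its relatives, 3 were lower (50%: Klra1, Klra4 and Klra8) and none higher, and centred 1, Klra4, was lower. Of 11 measured genes of the CD94 and NKG2 family and related lectins, 7 were lower (63.6%) and none higher, and centred 3 were lower (27.3%) and 1 higher. Klrk1, which encodes the activating receptor NKG2D, was at 71.9 CPM, against 487 and 344 CPM, and Klrb1c, which encodes NK1.1, at 66.2 CPM, against 410 and 264 CPM. Klrc2, encoding the activating receptor NKG2C, had no UMI, which puts it at least 13.4-fold below cluster 0 and at least 7.997-fold below cluster 7, from a limit of 3 UMIs over the cluster. Klrg1, an inhibitory receptor for cadherins, was at 327 CPM, against 93.8 and 269 CPM, and Havcr2, the inhibitory receptor Tim-3, at 183 CPM, against 8.25 and 92.2 CPM, each over 2-fold above cluster 0 only.

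Of 16 measured adaptors and kinases that carry the receptors' signals, 8 were lower (50%, against 47.8% of all genes) and none higher, and centred 5 were lower and 2 higher. Tyrobp (DAP12) was at 1876 CPM, against 1782 and 1917 CPM, and Fcer1g, the Fc receptor gamma chain, at 1855 CPM, against 1638 and 1617 CPM. Both were singled out after their values were seen. Syk, the kinase these chains recruit, had no UMI (at least 21.6-fold and 6.27-fold below clusters 0 and 7), Fyn was at 39.7 CPM, against 464 and 205 CPM, and Lyn at 13.2 CPM, against 365 and 182 CPM.

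Among the genes by which NK cells signal to other cells, several were low. Ccl5, a chemokine that draws T cells and monocytes, was at 151 CPM, against 8443 CPM in cluster 0 and 556 CPM in cluster 7. Xcl1, which attracts cross-presenting dendritic cells, was at 30.3 CPM, against 405 and 267 CPM, Ccl4 at 13.2 CPM, against 531 and 94.1 CPM, and Ifng, interferon gamma, at 32.2 CPM, against 162 and 90.17 CPM. Of 8 measured cytokine genes, 5 were lower (62.5%) and none higher, and centred 2 were lower and 1 higher, a share of 25% beside the 23.8% of all genes. All 10 measured cytokine receptor genes were lower, with a median log2 ratio of -2.49, and 6 of them remained lower when centred. Among them were Il12rb2 of the IL-12 receptor (9.46 CPM, against 642 and 194 CPM), Il18rap of the IL-18 receptor (11.3 CPM, against 304 and 128 CPM) and Ifngr1 (73.8 CPM, against 1054 and 485 CPM). Il2rb, the IL-2 and IL-15 receptor chain that NK cells depend on, was at 253 CPM, against 829 and 708 CPM.

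Genes for homing, adhesion and transcription followed. Klf2, which drives the genes of lymphocyte recirculation, was at 9.46 CPM, against 359 and 84.5 CPM. Of 16 measured integrin and adhesion genes, 12 were lower and 1, Cd55, higher, and centred 5 were lower and 1 higher. Of 20 measured transcription factors of innate lymphocytes, 16 were lower and 1 higher, with a median log2 ratio of -3.37, and 15 remained lower when centred. The higher one was Id2, the E-protein inhibitor needed for innate lymphocyte development, at 1106 CPM, against 402 and 457 CPM. The T-box factors differed: Tbx21 (T-bet) was at 9.46 CPM, against 263 and 118 CPM, and Eomes at 53.0 CPM, against 113 and 102 CPM, which does not meet the rule. Runx1 was at 15.1 CPM, against 1461 and 744 CPM, Bach2 at 7.56 CPM, against 1062 and 455 CPM, and Zeb1 at 13.2 CPM, against 542 and 388 CPM.

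Of 14 measured early response genes, which cells switch on within minutes of a stimulus, 13 were lower, and 6 when centred. Fos had 1 UMI, and Jun was at 13.2 CPM, against 209 and 142 CPM. Of 10 genes of the TGF-beta response, 9 were lower and none higher, and centred 4 were lower. Smad3, a transducer of that signal, had no UMI and was at least 50.1-fold and 13.97-fold below clusters 0 and 7. Of 10 measured survival genes, 4 were lower (Bcl2, Bcl2l1, Bcl2l11 and Birc3), and centred 3 were lower and 2 higher. Bcl2 was at 45.4 CPM, against 858 and 348 CPM, while Mcl1, another survival gene of the family, was at 127 CPM, against 180 and 145 CPM.

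Many of the lowest ratios were those of long genes. Among the 15 largest were Dock10 (24.6 CPM, against 2298 and 1615 CPM), Kcnq5 (17.0 CPM, against 1823 and 1210 CPM) and Dennd4a (71.9 CPM, against 3969 and 2627 CPM), with Ripor2, Satb1, Ern1, Setbp1, Foxp1, Lncpint, Peak1 and Frmd5. Rnf157 and Mctp2 had no UMI and were at least 82.8-fold and 73.2-fold below cluster 0. Of the 3540 genes, 98.5% had a length on GRCm38.p6, measured over the gene with its introns. The 80 higher genes had a median length of 6491 bases and the 1691 lower genes one of 78669 bases, while the rest had 13013 bases.

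Sorted by length into 4 groups of 872 genes, the share of genes lower in cluster 13 was 10.2% up to 10285 bases, 24.4% from there to 31289 bases, 65.7% up to 81736 bases and 91.3% beyond. The median log2 ratio to clusters 0 and 7 in the 4 groups was 0.38, -0.29, -1.70 and -2.66. In each of the 5 mice taken alone, the shortest group had a median between 0.23 and 0.37 and the longest one between -2.72 and -3.003. Between the 2 larger clusters the same gradient was slight: cluster 7 over cluster 0 had medians of 0.19, 0.03, -0.25 and -0.40. The part of gene length in the low ratios of single receptor, kinase and transcription factor genes above was not tested.

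**Figure D2:**
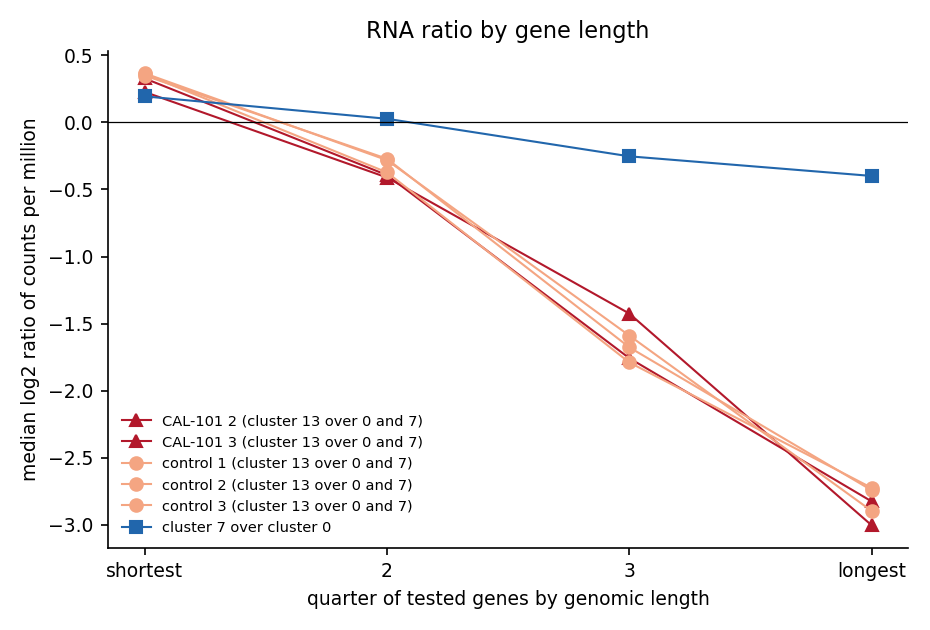
Median log2 ratio of cluster 13 to clusters 0 and 7 in 4 equal groups of genes by length, with a line for each of the 5 mice, and in blue the ratio of cluster 7 to cluster 0. Every mouse falls from above 0 in the shortest group to -2.72 or lower in the longest, while the blue line stays between 0.19 and -0.40.

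Malat1, a nuclear long noncoding RNA that is among the most abundant transcripts of most cells, was nearly absent. It was at 89.3 and 2288 CPM in CAL-101 mice 2 and 3 and at 197, 325 and 156 CPM in control mice 1, 2 and 3, against 12206 to 14649 CPM in cluster 0 and 6203 to 7080 CPM in cluster 7. A single cell of CAL-101 mouse 3, with 24.3% mitochondrial UMIs, held 93 of the 196 Malat1 UMIs, and without it that mouse was at 136 CPM. No Malat1 UMI was found in 26 of 73 cluster 13 cells, against 0 of 8735 in cluster 0, which allows a share of up to 0.0422% (exact binomial interval, counting error only), and 0 of 2036 in cluster 7. Of 6 measured nuclear long noncoding RNAs, a group put together after values were seen, all were lower, against 47.8% of all genes. No centred count was made for this group.

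Mitochondrial RNA was low in most cells. The median cell had 0.293% of its UMIs from mitochondrial genes in cluster 13, against 2.11% in cluster 0 and 2.70% in cluster 7, and 48 of 73 cells were under 1%, against 437 of 8735 and 27 of 2036. CAL-101 mouse 3 went the other way, with a median of 3.43% in its 5 cells, against 2.21% in cluster 0 and 2.94% in cluster 7 of that mouse. Pooled over all cells the share was 1.63%, against 2.46 and 3.07%, a gap of less than 2-fold. The median share of ribosomal protein genes was 29.4%, against 17.9 and 22.1%. At an equal 2000 UMIs a cluster 13 cell showed a median of 685 genes (67 cells, with 6 shallower ones left out), against 1116 in cluster 0 and 1063 in cluster 7. The part of these shifts in RNA quality in the low NK receptor, cytokine receptor and transcription factor genes was not tested.

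**Figure D3:**
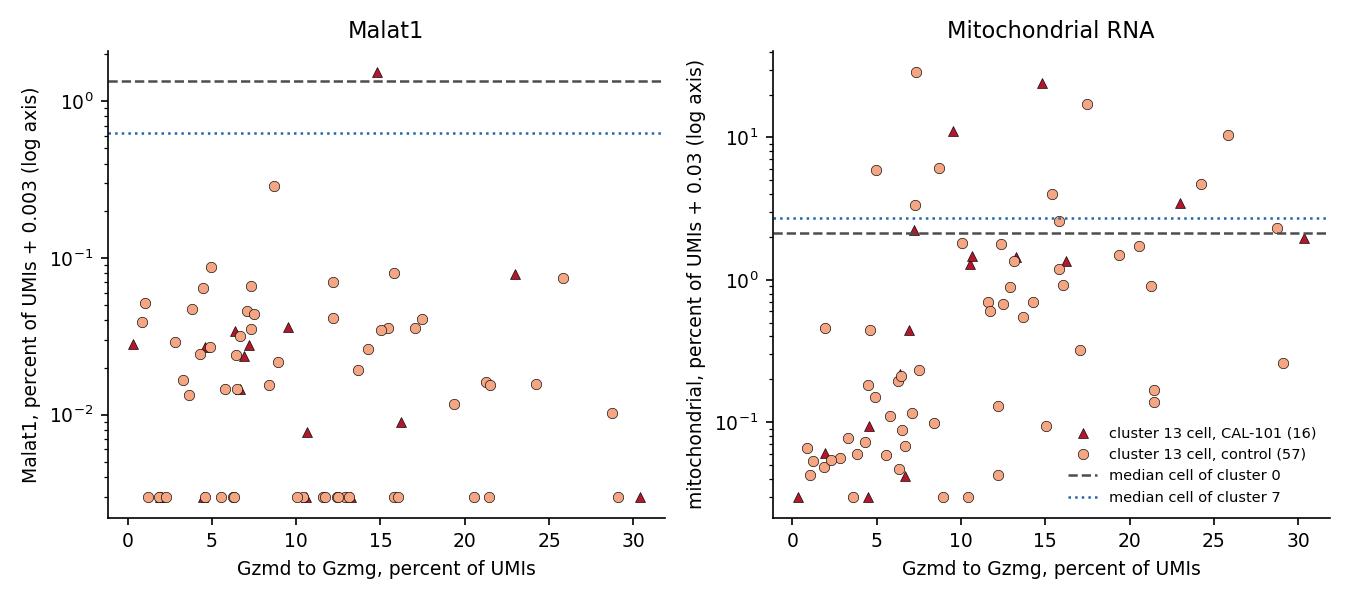
Each of the 73 cluster 13 cells (16 from CAL-101 mice, 57 from control mice) by the percentage of its UMIs from Gzmd, Gzme, Gzmf and Gzmg and by its percentage of Malat1 (left) and mitochondrial UMIs (right, both log axes), with lines at the medians of clusters 0 and 7. Nearly all cells lie below both Malat1 medians whatever their granzyme share, and most lie below both mitochondrial medians.

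Surface protein gave a view that does not rest on RNA. Antibody counts are given as a percentage of all tags, and an antibody is called higher or lower past 1.5-fold against both clusters, on the same side of the 2 summed in all 5 mice. Of 102 antibodies, 6 were higher (5.88%) and 18 lower (17.6%). The sequences of the 15-base tags that identify 4 of the antibodies discussed are shown, as read from the deposited feature list.
CD55: attgttgtcagacca
CD61: ttctttacccgcctg
CD90.2: ccgatcagccgttta
CD44: tggcttcaggtccta
The CD55 tag took 10.0 and 25.9% of all tags in CAL-101 mice 2 and 3 and 25.8, 18.9 and 29.5% in control mice 1, 2 and 3. In cluster 7 the same mice had 10.1, 6.54, 9.62, 7.102 and 13.1%, and in cluster 0 they had 1.05 to 1.39%. The mean was 22.03 ± 7.74% in cluster 13, against 1.23 ± 0.133% in cluster 0 and 9.29 ± 2.62% in cluster 7 (SD, n = 5 mice). The value of CAL-101 mouse 2 overlapped those of cluster 7: 1 of its 8 cells carried 21602 tags, and without that cell it had 22.4%.

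CD61, the integrin beta 3 chain, took 5.59 and 14.4% in CAL-101 mice and 10.7, 13.99 and 13.9% in control mice, with means of 11.7 ± 3.74% in cluster 13, 1.17% in cluster 0 and 6.45% in cluster 7. Without the cell of many tags, CAL-101 mouse 2 had 13.6%. CD31, an adhesion molecule of endothelium and leukocytes, averaged 2.94%, against 0.521 and 1.44%. CD49a, a collagen-binding integrin chain used to mark tissue-resident NK cells and ILC1, averaged 0.981%, against 0.440 and 0.647%. CD278 (ICOS) and CD25, the IL-2 receptor alpha chain, were higher at 0.430 and 0.408%, against 0.185 and 0.191% in cluster 0 and 0.278 and 0.270% in cluster 7. The highest isotype control in cluster 13 was at 0.0883%.

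CD90.2 was not the highest in cluster 13. It took 1.32 and 4.72% in CAL-101 mice 2 and 3 and 3.21, 4.54 and 3.07% in control mice 1, 2 and 3, against 1.85 to 2.58% in cluster 0 and 3.98 to 5.89% in cluster 7. The mean of 3.37 ± 1.37% lay between the 2.11 ± 0.276% of cluster 0 and the 4.56 ± 0.772% of cluster 7. A tag that lies between the 2 clusters cannot meet the rule, which asks for 1.5-fold to the same side of both. The log2 ratio of pooled shares was 0.50 to cluster 0 and -0.65 to cluster 7, of which the second is past 1.5-fold. Scaled to the isotype controls, as described below, the ratios were 0.72 and -1.16, both past 1.5-fold. Without its cell of 21602 tags, CAL-101 mouse 2 had 2.87%, which is above the 1.85% of its cluster 0. KLRG1 also lay between the clusters, at 3.79 ± 1.29%, against 1.13% in cluster 0 and 4.31% in cluster 7.

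Among the lower antibodies, CD44 took 0.453 and 0.178% in CAL-101 mice and 0.241, 1.203 and 0.220% in control mice, and every value was below the 2.64 to 3.57% of cluster 0 and the 1.89 to 2.78% of cluster 7. Ly49D averaged 0.119%, against 2.40 and 1.04%, and CD49b, an integrin chain of mature NK cells, 0.997%, against 7.48 and 2.29%. NK.1.1 averaged 0.207%, against 0.942 and 0.543%. CD45, the leukocyte phosphatase, averaged 2.24 ± 0.816%, against 10.99% in cluster 0 and 7.37% in cluster 7, and its gene Ptprc was at 161 CPM, against 2145 and 1386 CPM. CD45.2, the allelic form used for the sort and read with its own antibody, averaged 0.771%, against 1.06 and 1.295%, a smaller difference that did not meet the rule. Other lower antibodies were CD11a, CD11b, CD11c, CD27, CD49d, CD54, CD86, CD274, CD357, I.A_I.E, Ly.49A and Ly49H.

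Since the percentages share 1 total, a very abundant tag lowers the others. Scaled to the 7 isotype controls, 1 antibody was higher (0.98%) and 16 lower (15.7%). CD55 then stayed above cluster 7 by a log2 ratio of 0.77, while CD61 did so by 0.24, which is under 1.5-fold. Isotype controls made up 0.425% of tags in cluster 13, against 0.492% in cluster 0 and 0.302% in cluster 7.

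Antibodies were also set beside the RNA of their genes. Of 48 antibodies that pair with 1 gene, 40 had RNA below both clusters, among them all 17 lower ones but also 19 of the 25 that were neither higher nor lower. The median log2 ratio of all genes was itself -1.11, so low RNA was common, and these counts do not show that RNA and protein went together. Of the 6 higher ones, only CD55 had RNA above both clusters. Itgb3, the gene of CD61, was at 39.7 CPM, against 96.4 and 140 CPM, and Pecam1, the gene of CD31, at 98.3 CPM, against 138 and 185 CPM, while their proteins were the most raised tags after CD55. Both sides depend on the scaling. Scaled to the isotype controls, CD61 and CD31 were above cluster 7 by log2 ratios of 0.24 and 0.56, both under 1.5-fold. Centred, the log2 ratio to clusters 0 and 7 summed was -0.21 for Itgb3 and 0.48 for Pecam1.

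**Figure D4:**
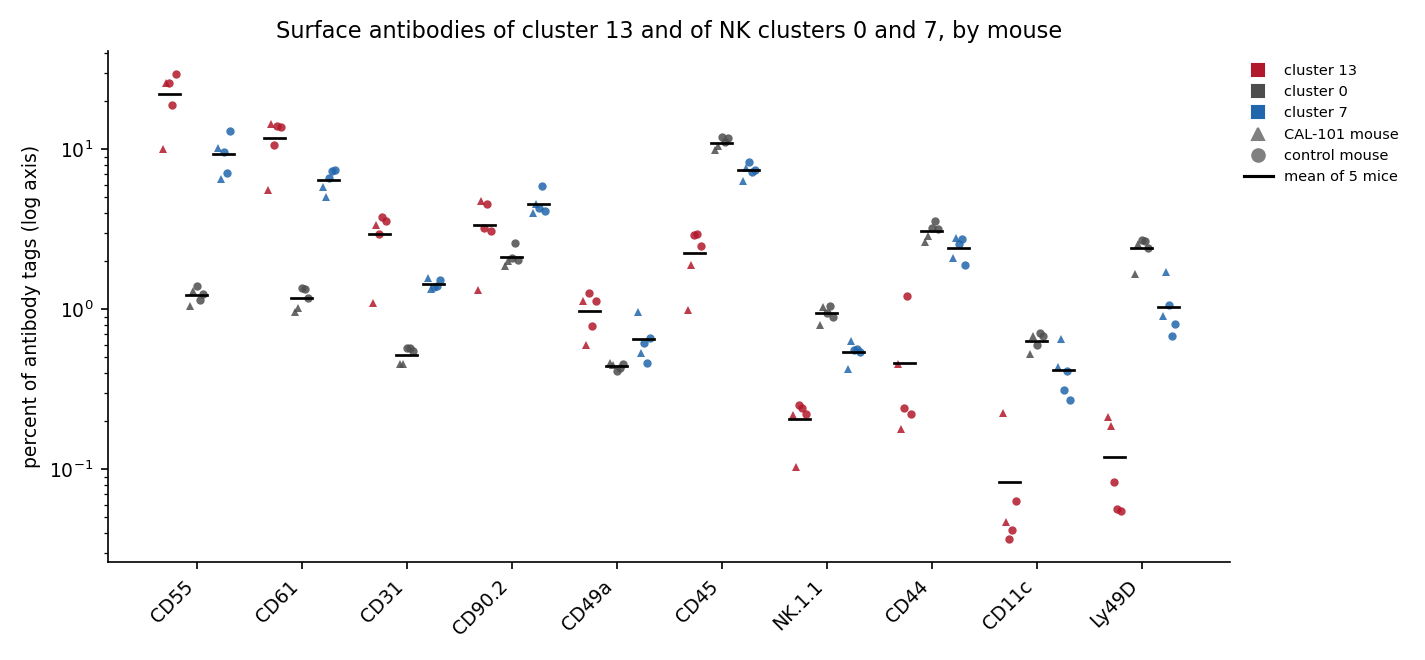
Share of all antibody tags (percent, log axis) for 10 antibodies in cluster 13, cluster 0 and cluster 7, with a triangle for each CAL-101 mouse, a circle for each control mouse and a bar for the mean of the 5 mice. CD55 and CD61 have their highest means in cluster 13, CD90.2 lies on average between clusters 0 and 7, and CD44, CD45 and Ly49D are lowest in cluster 13.

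Cells with the same granzyme make-up but with Malat1 and mitochondrial RNA were found outside the cluster. In cluster 13, 35 of 73 cells had over 10% of their UMIs from Gzmd, Gzme, Gzmf and Gzmg, and among the other 45404 cells 26 did, of which 25 were in cluster 7 and 1 in cluster 6. By mouse the 25 were 0, 3 and 0 in CAL-101 mice 1, 2 and 3 and 7, 5 and 10 in control mice 1, 2 and 3. These cells were picked for their granzymes, so only their other genes and tags are compared. The 35 cluster 13 cells had Malat1 at 433 CPM and a median of 1.26% mitochondrial UMIs, 7605 UMIs and 1580 genes. The 25 cluster 7 cells had Malat1 at 9270 CPM and a median of 3.21% mitochondrial UMIs, 26369 UMIs and 4419 genes.

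Several other genes and tags were within 1.5-fold of each other in the 35 and the 25 cells. Ctsg was at 1075 CPM in the 35 cells and 836 CPM in the 25, Spp1 at 16543 and 12071 CPM, and Cd55 at 788 and 857 CPM. Cd44 was at 10.7 and 8.18 CPM, with 104 CPM in the other 2011 cells of cluster 7. The CD55 tag took 24.8% in the 35 cells, 26.5% in the 25 and 8.45% in the rest of cluster 7, and the CD44 tag 0.345, 0.423 and 2.54%. Low CD44 and high CD55 thus went with high granzyme D to G in the 25 pooled cells, which kept their Malat1. None of the 25 was from CAL-101 mouse 1 or 3, and values by mouse were not compared. The 25 were also deeper than the other cells of cluster 7, with medians of 26369 and 16680 UMIs. Other genes and tags were further apart: Tff1 was at 373 CPM in the 35 cells and 50.4 CPM in the 25, Ptprc at 204 and 751 CPM, Klre1 at 197 and 131 CPM, and the CD45 tag took 2.45 and 4.24%. The 38 remaining cells of cluster 13, with fewer granzyme UMIs, had a median of 0.0610% mitochondrial UMIs, Tff1 at 469 CPM and the CD55 tag at 19.8%.

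The share of cluster 13 among all tumour leukocytes was lower in every CAL-101 mouse than in any control mouse, without passing a test. Its share of all cells was 0.0488, 0.111 and 0.0735% in CAL-101 mice 1, 2 and 3, and 0.154, 0.233 and 0.284% in control mice 1, 2 and 3. The means were 0.0777 ± 0.0313% and 0.224 ± 0.0657% (SD, n = 3 each), with a difference of -0.146 percentage points. The exact two-sided permutation test gave p = 0.1, the smallest it can give with 3 mice a group, and 0.2 when adjusted over the 2 denominators tested. edgeR's quasi-likelihood test on cell numbers over the 14 clusters gave a log2 ratio of -1.50 ± 0.549 (SE) with an adjusted p of 0.0838. Exact binomial intervals of the single mice overlap: 0.0479 to 0.218% in CAL-101 mouse 2 and 0.0820 to 0.263% in control mouse 1.

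Within the NK clusters the share was 0.130, 1.31 and 0.487% in CAL-101 mice 1, 2 and 3, and 0.510, 0.443 and 0.869% in control mice 1, 2 and 3. The means were 0.641 ± 0.602% and 0.607 ± 0.229%, the groups overlapped and the exact permutation p was 0.9 (0.9 adjusted). CAL-101 mouse 2 was the highest of the 6 and CAL-101 mouse 1 the lowest, and without CAL-101 mouse 2 the difference of means was -0.299 percentage points in place of 0.0335. Of clusters 7 and 13 together, cluster 13 made up 1.44, 6.96 and 2.98% in CAL-101 mice and 3.52, 2.22 and 5.94% in control mice (exact permutation p = 1, not adjusted). A share is a part of a fixed whole, so fewer cluster 13 cells and more of other cells cannot be told apart.

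**Figure D5:**
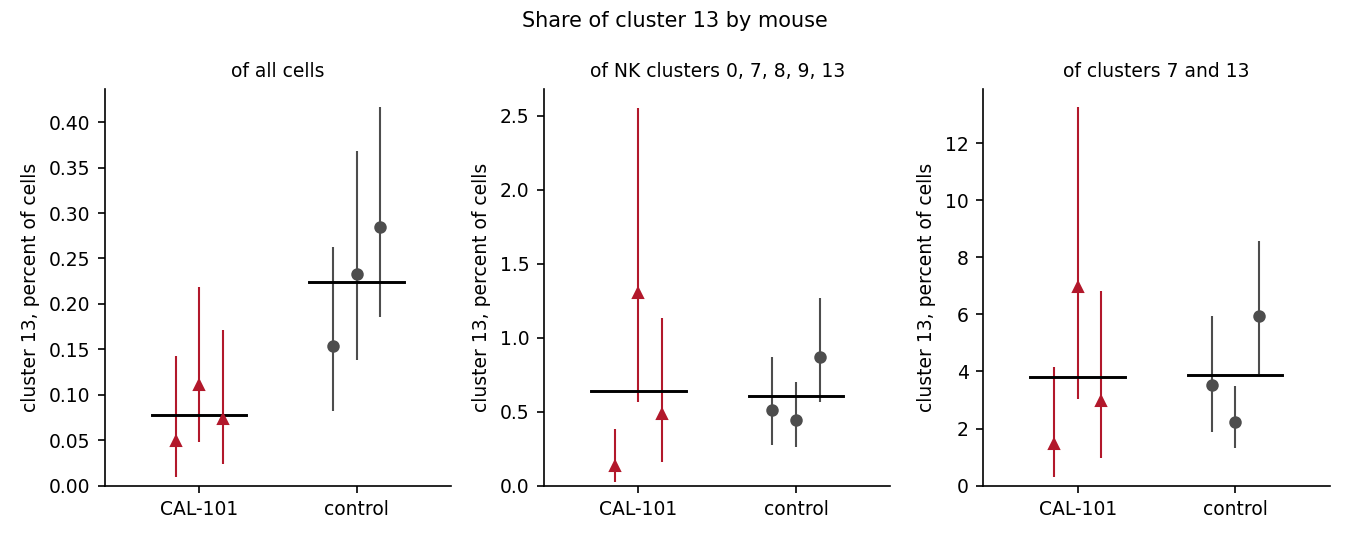
Share of cluster 13 (percent) in each CAL-101 and control mouse, of all cells, of the NK clusters, and of clusters 7 and 13, with exact 95% binomial intervals for each mouse and a bar for each group's mean. The CAL-101 mice are all below the control mice in the first panel and overlap them in the other panels.

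No gene of cluster 13 differed between CAL-101 and control mice at an adjusted p under 0.05. Of 1079 genes tested with edgeR's quasi-likelihood test over the 5 mice, 0 passed (0%) and 86 had an unadjusted p under 0.05, and DESeq2 called 0 with 26 unadjusted. Gadd45g, a stress-induced gene that promotes interferon gamma production in lymphocytes, was at 288 and 257 CPM in CAL-101 mice 2 and 3, against 98.6, 72.3 and 53.8 CPM in control mice 1, 2 and 3. Its groups did not overlap, with a log2 ratio of 2.03 ± 0.390 (SE) and an edgeR adjusted p of 0.112. Tmsb15a, one of the genes that mark the cluster, was at 179 and 187 CPM in CAL-101 mice, against 575, 456 and 613 CPM in control mice, with a log2 ratio of -1.55 ± 0.315 (SE) and an edgeR adjusted p of 0.112. Gimap4, a GTPase of lymphocyte survival, was at 109 and 117 CPM, against 16.4, 21.7 and 5.38 CPM (edgeR adjusted p 0.307), from 1 to 11 UMIs a mouse. AY036118 and Cst7, the granule cystatin F, were next, both at the same adjusted p and both higher in CAL-101 mice on average.

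For the granzymes the ratios between mice that received treated and untreated T cells were near 0. The log2 ratio of CAL-101 to control mice was 0.17 ± 0.147 (SE) for Gzmg, 0.02 ± 0.140 for Gzmf, 0.00 ± 0.162 for Gzmd and 0.14 ± 0.148 for Gzme. Spp1 had a log2 ratio of 0.81 ± 0.264 (edgeR adjusted p 0.379) and Tff1 one of -1.91 ± 0.582 (edgeR adjusted p 0.332). Without CAL-101 mouse 2 the fit called 33 genes, without CAL-101 mouse 3 it called 12, and without control mouse 1 it called 5, so the count of 0 depends on single mice.

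Of 102 antibodies tested with edgeR on tag counts, 0 passed (0%) and 4 had an unadjusted p under 0.05, and DESeq2 called 0 with 11 unadjusted. Ly49D took 0.211 and 0.187% in CAL-101 mice, against 0.0838, 0.0561 and 0.0546% in control mice, with a log2 ratio of 1.31 and an edgeR adjusted p of 0.511. Without CAL-101 mouse 3, when CAL-101 mouse 2 with its cell of many tags stood alone, 37 antibodies were called. The other smallest p-values were those of CD106, NK.1.1, CD3 and Ly49H. Of 1079 genes, 0 (0%) had a CAL-101 effect in cluster 13 that differed from that in clusters 0 and 7 at an adjusted p under 0.05 (limma on paired differences per mouse), with 82 at an unadjusted p under 0.05, and without CAL-101 mouse 2 the count was 10. The 5 smallest p-values were those of Gimap4, Cisd3, Gadd45g, D16Ertd472e and Mapkapk2, with adjusted p between 0.299 and 0.534.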

How the data were processed

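Single-cell RNA and surface protein were measured together in tumour leukocytes of 6 mice, 3 per group. Per the file headers, the authors deposited raw UMI counts per cell made with Cell Ranger 7.1.0 (32285 genes and 102 antibodies with 7 isotype controls among the features read), and per the submitters' processing notes the build was mm10 and Seurat was used. The annotation version, the settings of the clustering, whether it used the antibody tags, and any removal of doublets were not stated in the sources used here. Clusters (14) and cell labels (10) came from the deposited cell table. Group names in that table were matched to the labels' CAL-101 and vehicle samples, and each cell to its library by barcode.

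Counts were summed per mouse and cluster and expressed as CPM or as percent of tags. Levels of different genes are counts of 3′ molecules. Clusters were compared by log2 ratios of pooled CPM + 10, with no test. Mice with at least 5 cluster 13 cells entered. CAL-101 was tested with edgeR 4.0.16 (quasi-likelihood, TMM, Benjamini-Hochberg over all genes or antibodies) on summed counts, with limma 3.58.1 for the difference of its effects (prior count 2) and an exact permutation test for shares, at an adjusted p of 0.05. DESeq2 1.42.0 was an alternative. Each mouse is the replicate, and p-values measure the spread between mice. No doublet caller was run on the deposited cells; leaving out cells above the 95th percentile of UMIs was an alternative. Intervals and limits of 3 counts cover counting error only. R 4.3.3 and Python 3.11.15 were used, and the 2 gene tests were tried on simulated counts with an assumed spread between mice. The edgeR test recovered 97% of 100 genes changed by a log2 ratio of 2 and 27% of 100 changed by 1, with 7 false calls. The limma test for a different effect recovered 47 and 0%, with 5 false calls. The assumed spread was not estimated from these mice, so these percentages may not hold for them. In the real counts Gadd45g and Gimap4, with log2 ratios of 2.03 and 3.02, were not called. A count of 0 genes therefore excludes neither 2-fold changes nor larger ones.

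The named genes were the 15 largest ratios each way past the rule without ribosomal, mitochondrial, Gm and Rik entries, up to 4 members of each pathway list, and Klra4, Klra8, Klre1, Ncr1, Thy1 and Cd44. Other named genes (such as Gzmb, Gzmc, Gzma, Prf1, Spp1, Mt1, Cd55, Id2, Malat1, Ptprc, Itgb3, Pecam1, Klrg1, Lgals3, Tbx21, Eomes, Tyrobp, Fcer1g, Il2rb, Ifng, Gapdh, Mcl1, Rps26) were chosen after their values were seen. The antibody rule was the 10 largest each way above the highest isotype control plus a fixed set; KLRG1 and the remaining lower antibodies were added after values were seen. The members, the lists and the rule were all chosen with earlier results of these data known. Promoter and locus coordinates are RefSeq's on GRCm38.p6; 81.6% of gene symbols in the files matched that table. A few genes and antibodies counted in the totals are not reported here by name.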

Additional observations from a re-analysis of the deposited data

Results flagged for a closer look

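Among 71 genes and antibodies of cluster 13 examined over the 5 mice, 10 had 1 mouse far from the other 4, where chance gives about 1 in 20. By RNA, Csta2 was at 327 CPM in CAL-101 mouse 3, with 16.4 to 50.6 CPM in the others. Malat1 was at 2288 CPM in the same mouse, with 89.3 to 325 CPM in the others. Thy1 was at 263 CPM in control mouse 3, with 337 to 354 CPM in the others.

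By antibody tag, 4 of the 7 were high values of CAL-101 mouse 2, whose 8 cells included the 1 with 21602 tags. CD4 took 0.358% of tags there, with 0.0374 to 0.0890% in the others, and 0.675% without that cell. TCR.Bchain took 0.591%, with 0.0280 to 0.0878% in the others, and 0.381% without it. CD127 took 1.70%, with 0.280 to 0.382% in the others, and 0.539% without it. CD11c took 0.225%, with 0.0367 to 0.0632% in the others, and 0.0575% without it. In control mouse 2, CD44 took 1.203% and CD11b 0.305%, with 0.178 to 0.453% and 0.0290 to 0.0374% in the others. NK.1.1 took 0.103% in CAL-101 mouse 3, with 0.220 to 0.251% in the others.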

How the results depend on the processing

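The comparison with clusters 0 and 7 depended on scale and filter. With a minimum of 20 CPM 2594 genes were lower, and with 100 CPM 900 were, because more or fewer genes were tested. Alternatives chosen after seeing the data gave 145 genes higher with totals that leave out the granzyme locus, and 922 higher and 842 lower when ratios were centred on the median; higher calls then made up 52.3% of calls, against 4.52%. Leaving out the locus moved the median log2 ratio to -0.89. Centred, 8 named genes changed sign, of which 2 had met the rule: Ncr1 reversed to 0.0129 and Spn to 0.0084, on the log2 scale. Scaled to isotype controls 1 antibody was higher, and at 2-fold 2 were. Leaving out 1 mouse at a time gave 79 to 95 genes higher, 1677 to 1718 lower, and 5 to 6 antibodies higher and 18 to 21 lower.

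For CAL-101, 9 genes were called with no filter beyond 1 UMI and 1 without cells of over 10% mitochondrial UMIs; the cause was not tested. With the replicate block 5 genes and 0 antibodies were called, and 0 genes had a different effect. The replicate numbers are shared labels, and whether they mark a pairing could not be decided. Deviations of log2 CPM from the group mean correlated at -0.00835 between the mice numbered 2 and at -0.0438 between those numbered 3. With 2 CAL-101 mice their deviations mirror each other, so these 2 values are not independent. Leaving out 1 mouse gave 0 to 33 genes, 0 to 37 antibodies and 0 to 10 genes with a different effect; a lone CAL-101 mouse was then assumed to vary like the others. The difference in share of all cells was -0.181 to -0.116 percentage points without 1 mouse, and of the NK clusters -0.299 to 0.289. It was also negative without control mouse 1 (-0.0152) and control mouse 2 (-0.0487), and edgeR on cell numbers gave a log2 ratio of -0.41 (adjusted p 0.633). Paired by number, the exact permutation p of the shares was 0.25 and 1. The alternatives gave 2485 values for 157 results on named genes and antibodies, where a gene can have more than 1 result. Of these values, 2263 kept their direction and call, 208 moved, 12 newly passed a threshold and 2 reversed. With 73 cells, a gene with no UMI is limited only to 3 UMIs over the cluster.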

Other observations

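The 6 cells that the authors labelled T cells, all from control mice, carried the granzyme genes of the other 67. Pooled, they had Gzmd at 17296 CPM, against 29066 CPM in the 67 cells labelled NK cells, Gzmg at 22093 CPM, against 34979 CPM, and the CD55 tag at 21.8% in both. Of T cell genes, they had 30 UMIs of Trbc2 (947 CPM, against 537 CPM in the cells labelled NK cells), 8 of Cd3g (252 CPM, against 164 CPM), 7 of Trbc1 (221 CPM, against 264 CPM), 5 of Cd3d (158 CPM, against 50.8 CPM), 2 of Cd3e, 1 of Trac and 0 of Cd8a among 31684 UMIs. Their CD8a tag was at 1.52%, against 0.158%. The CD90.2 tag was at 2.33% in the 6 cells, against 3.35% in the 67, and whether the 6 were host or transferred cells was not tested. Over all of cluster 13, the 13 T cell marker genes summed to 1187 CPM, against 1575 CPM in cluster 0 and 1461 CPM in cluster 7, and Cd3g, which NK cells also transcribe, was at 170 CPM, against 86.0 and 113 CPM.

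Genes of the innate lymphoid cell types were few. Of 14 ILC3 genes 12 had no UMI, Il22 among them, and of 15 ILC2 genes 11 had none, Il1rl1 and Il13 among them. The 14 ILC1 genes summed to 276 CPM, against 612 CPM in cluster 0 and 812 CPM in cluster 7, with no UMI of Tnfsf10, Cd200r1 or Zfp683. Of 13 genes of mature NK cells, 4 had no UMI (Itgam, S1pr5, S1pr1 and Zfp683). Of 9 genes of basophils and mast cells, 7 had none, and Mcpt8, which lies in the granzyme locus, had 20 UMIs (37.8 CPM, against 0.322 and 9.81 CPM).

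Heat shock genes met the rule for lower genes less often (12.5%) than all genes (47.8%), and interferon-stimulated genes about as often (42.9%). Of 8 measured heat shock genes 1 was lower, Dnajb1, and of 7 interferon-stimulated genes 3 were lower, Irf7 and Bst2 among them, with none higher in either; centred on the median of all genes, 3 heat shock genes and 1 interferon-stimulated gene were higher and none lower. The 16 cell cycle genes summed to 445 CPM, against 308 and 486 CPM, and Pcna was at 195 CPM, against 98.1 and 106 CPM.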
